A study of Mus musculus with 9 samples.

Results

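The mitochondrial genome of the mouse carries 37 genes, and all 37 were present among the 56748 genes of a count table made from liver RNA. They were taken as every row that the table places on chromosome MT, namely 13 protein-coding, 2 rRNA and 22 tRNA genes, so the chromosome and not a level or a difference set the members. Bulk RNA sequencing was performed on the liver of C57BL/6 mice (C57BL/6J per the methods) in 3 groups of 3 libraries, with mice that were 7 to 8 weeks old when bought. The study asked how long-term oral dosing with indirubin, a plant-derived bis-indole, acts on the liver of mice with chronic colitis. The group labelled DSS went through 3 cycles of 1.8% dextran sulfate sodium in the drinking water, each lasting 1 week and followed by a week of recovery, and was given 200 µL sterile water by mouth each day. The group labelled Indirubin went through the same cycles and received 1 g/kg indirubin daily in the same volume. The group labelled Control carries the treatment label water. The series description speaks of induced colitis without setting this group apart, so its state is not certain. The methods give the daily 200 µL sterile water for a single control group, and it is taken here to hold for both Control and DSS. The labels number the libraries without saying that each is a separate animal, so the p-values measure the spread between these libraries, which may be technical.

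The mitochondrial genome is transcribed from both strands into long precursor RNAs, and most mRNAs and rRNAs in them are flanked by tRNAs whose excision sets the other RNAs free. The 13 mRNAs encode core subunits of complexes I, III and IV of the respiratory chain and of ATP synthase, which is complex V, while the rRNAs and tRNAs serve the translation of these mRNAs inside the organelle. Hepatocytes hold many mitochondria, and their transcripts are abundant in liver RNA.

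The tRNA genes are the shortest members, and 9 of them are shown here because the values below turn on them. They are the most counted ones (mt-Tp for proline, mt-Tc for cysteine, mt-Te for glutamate and mt-Tl2 for leucine), further ones called in a comparison (mt-Ty for tyrosine, mt-Ts2 for serine and mt-Tg for glycine) and 2 with almost no count (mt-Tf for phenylalanine and mt-Td for aspartate). Each sequence is the DNA of the gene, 5′ to 3′ on the gene's own strand, from GENCODE transcripts of build GRCm38, and capitals mark the anticodon. In GRCm39, the build of the counts, the 37 genes have the same positions, strands and lengths.
mt-Tp: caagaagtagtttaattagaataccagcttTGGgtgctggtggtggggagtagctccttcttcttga
mt-Tc: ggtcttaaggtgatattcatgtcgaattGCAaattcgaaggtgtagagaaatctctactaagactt
mt-Te: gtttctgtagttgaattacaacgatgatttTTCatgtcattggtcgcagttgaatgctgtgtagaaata
mt-Tl2: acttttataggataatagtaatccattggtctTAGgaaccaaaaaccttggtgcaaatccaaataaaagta
mt-Ty: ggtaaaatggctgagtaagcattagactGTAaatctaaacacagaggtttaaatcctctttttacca
mt-Ts2: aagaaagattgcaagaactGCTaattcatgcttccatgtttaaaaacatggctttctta
mt-Tg: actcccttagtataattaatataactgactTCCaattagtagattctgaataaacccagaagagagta
mt-Tf: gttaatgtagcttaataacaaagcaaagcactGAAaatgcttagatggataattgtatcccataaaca
mt-Td: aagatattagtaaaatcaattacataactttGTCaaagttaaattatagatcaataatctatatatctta

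Mitochondrial transcripts took most of the counts in every library. Their share of the library total was 89.1%, 87.5% and 91.3% in Control, 85.8%, 87.7% and 72.4% in DSS, and 89.5%, 71.6% and 77.2% in Indirubin. The low shares came from DSS replicate 3 and Indirubin replicates 2 and 3, while DSS replicate 2 and Indirubin replicate 1 were within the range of Control and DSS replicate 1 was just below it. The group means were 89.3% ± 1.87 in Control, 82.0% ± 8.32 in DSS and 79.4% ± 9.16 in Indirubin (SD, n = 3), and the groups overlapped in each pair. The difference from Control was -7.34 percentage points for DSS and -9.90 points for Indirubin. That of Indirubin from DSS was -2.56 points, and lay between -7.60 points (without Indirubin replicate 1) and 1.36 points (without Indirubin replicate 2) with each library left out in turn. Without DSS replicate 3 the difference of DSS from Control was -2.57 points. That of Indirubin from Control was -14.9 points without Indirubin replicate 1 and -5.98 points without Indirubin replicate 2. In bulk tissue, fewer cells of a type and less RNA per cell cannot be told apart, and the same holds for mitochondria.

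**Figure D1:**
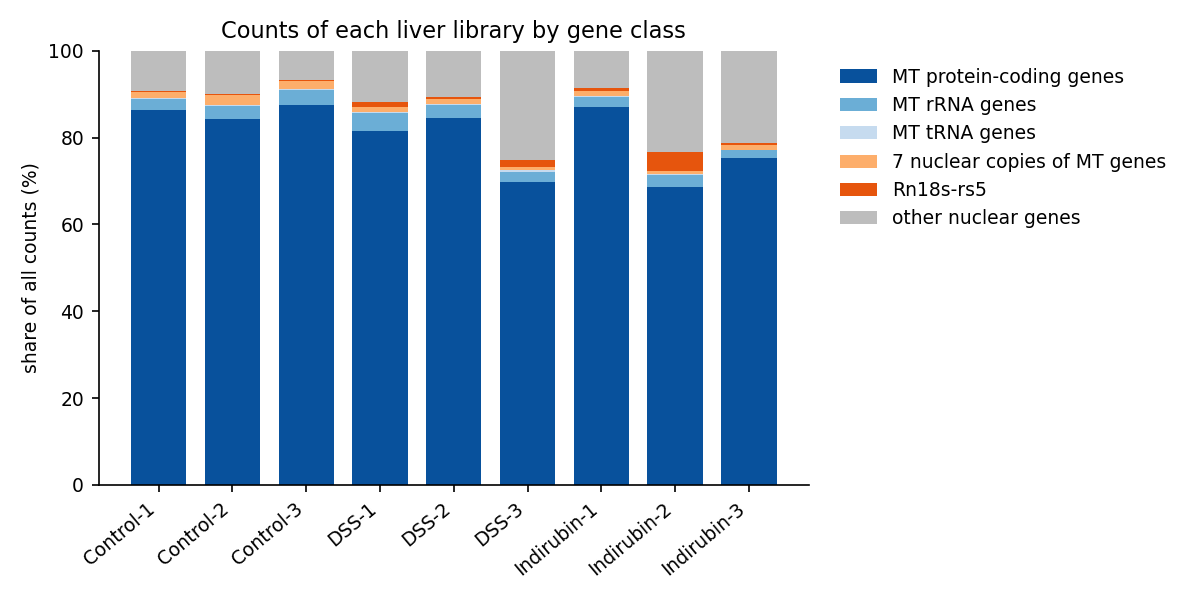
Stacked bars give the share of all counts (%) in each of the 9 liver libraries that fell on mitochondrial protein-coding, rRNA and tRNA genes, on 7 nuclear copies of mitochondrial genes, on Rn18s-rs5 and on other nuclear genes. Protein-coding mitochondrial genes fill 68.5% to 87.5% of each bar, and the bars of DSS replicate 3 and Indirubin replicates 2 and 3 hold the largest nuclear parts.

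The library totals ranged from 6514863 to 7944684 counts, which left 569044 to 2132208 counts for nuclear genes and 8271 to 17355 nuclear genes with a count. The 95% Wilson interval of a mitochondrial share was at most 0.0341 percentage points to each side, and covers counting error only. All 10 hepatocyte markers were counted in every library. Replicates of a group differed by more than sampling noise in all 9 pairs. Separately made libraries of the same animal could do so as well, so this does not show that the libraries come from separate animals.

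Within the mitochondrial total, protein-coding genes held 94.9% to 97.5%, the 2 rRNA genes 2.36% to 4.81% and the 22 tRNA genes 0.183% to 0.382%. The 6 most counted genes (mt-Co1, mt-Cytb, mt-Nd2, mt-Nd4, mt-Nd1 and mt-Nd5) made up 90.7% to 93.5% of it in every library. Compared per length, as counts per kb of gene per 1000000 mitochondrial counts, mt-Co1 (ENSMUSG00000064351, MT, 5328 to 6872, plus strand), the catalytic subunit of cytochrome c oxidase, had the highest median over the 9 libraries at 208352. It was followed by mt-Cytb (ENSMUSG00000064370, MT, 14145 to 15288), the mitochondrially encoded subunit of complex III, at 151868 and the complex I subunit gene mt-Nd2 (ENSMUSG00000064345, MT, 3914 to 4951) at 141830. These neighbours lay close: mt-Cytb ranged from 144007 to 168389 and mt-Nd2 from 90582 to 175204, so their ranges overlapped. The range of mt-Co1, from 188879 to 244600, lay above both.

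Further complex I subunit genes followed on the same scale, with medians of 102975 for mt-Nd1, 77072 for mt-Nd4, 37220 for mt-Nd6 and 34974 for mt-Nd5. The rRNA genes mt-Rnr1 (12S) and mt-Rnr2 (16S), at 16978 and 10500, stood below these 7 mRNA genes, although both are structural RNAs of the mitochondrial ribosome. The remaining 6 protein-coding genes, all within MT 7013 to 10173, were lower: mt-Co2 at 7964, mt-Atp6 at 6222, mt-Co3 at 4940, mt-Nd3 at 3149, mt-Nd4l at 629 and mt-Atp8 at 36.1. Among the mRNA and rRNA genes, the steps from mt-Nd4 to mt-Nd6, from mt-Nd3 to mt-Nd4l and from mt-Nd4l to mt-Atp8 had no overlap of ranges, and the other neighbours below mt-Cytb overlapped. Of these 6, the first 5 have a nuclear copy over 99.0% or more of their length (described next), and 43 bases of mt-Atp8, which encodes a small ATP synthase subunit, overlap mt-Atp6. Whether the copies and overlaps set the low levels was not tested. Library selection and the strand setting of the counting are not given in the sources used here. If reads were counted without regard to strand, a gene could take reads of opposite-strand RNA over its whole length. Genes that overlap on opposite strands, such as mt-Nd5 and mt-Nd6 (14 bases), are further uncertain by the reads of the shared stretch.

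**Figure D2:**
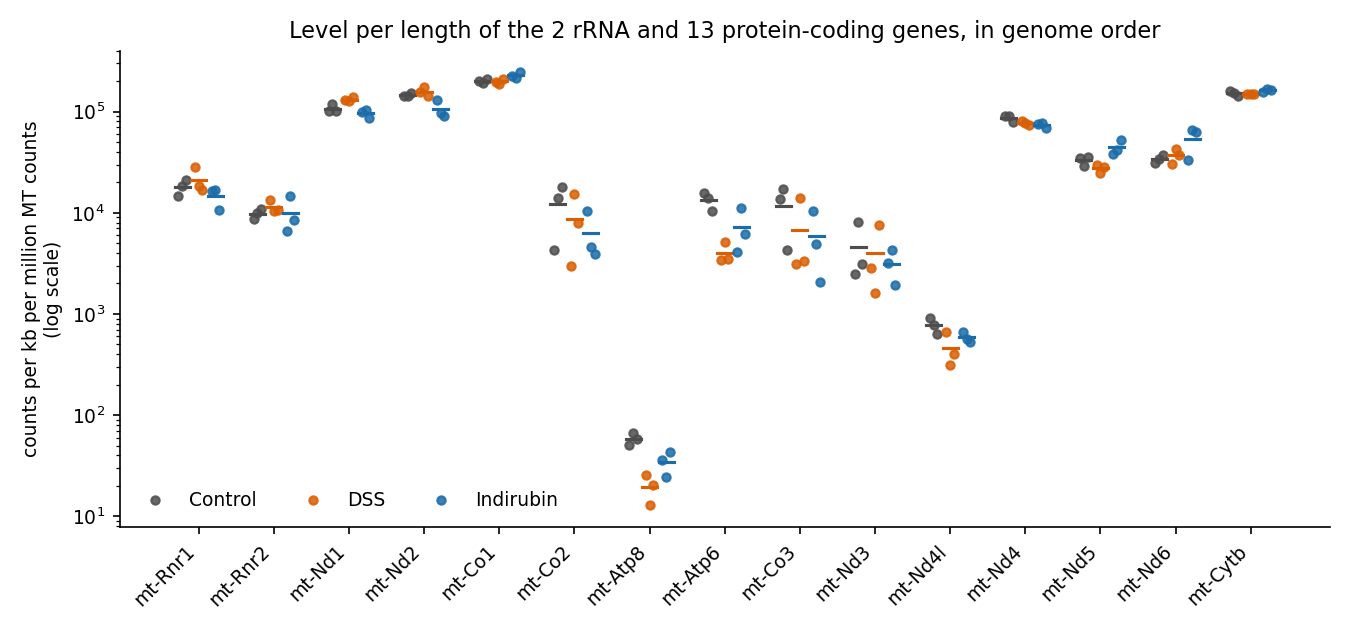
Points give each library's level of the 2 rRNA and 13 protein-coding genes as counts per kb per 1000000 mitochondrial counts (log scale), in genome order, coloured by group, and bars mark the means of 3 libraries. The genes from mt-Co2 to mt-Nd4l form a low stretch with a wide spread between libraries, with mt-Atp8 lowest at a median of 36.1, and mt-Co1 is highest at 208352.

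The mouse genome also holds nuclear copies of mitochondrial DNA. The closest is on chromosome 1, annotated as 7 pseudogenes between 24650616 and 24655278 of GRCm39 on the minus strand, and reads that match both cannot be assigned to one. The copies of mt-Co2 (Gm28661, 681 bases), mt-Atp6 (Gm10925, 678 bases), mt-Co3 (Gm28437, 783 bases), mt-Nd4l (Gm10222, 294 bases) and the first 876 bases of mt-Nd4 (Gm28439) had no mismatch in the GRCm38 transcripts. The copy of mt-Nd3 (Gm28438, 345 bases) differed by T3C and that of mt-Co1 (Gm29216, bases 1063 to 1545) by A1066T, with positions counted from 1 at the 5′ end of the mitochondrial gene and its base first. The stretches around both substitutions are given because each is the only mismatch within the aligned stretch of its pair, with the differing base in capitals.
mt-Nd3: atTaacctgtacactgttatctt
Gm28438: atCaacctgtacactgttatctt
mt-Co1: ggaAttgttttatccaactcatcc
Gm29216: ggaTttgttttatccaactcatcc

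How the counts were divided differed widely between libraries for the genes copied over most of their length. Of the counts on mt-Atp6 and Gm10925 together, mt-Atp6 held 28.3% to 79.1% over the 9 libraries, and the corresponding ranges were 53.0% to 85.8% for mt-Co2, 47.2% to 82.2% for mt-Co3, 35.7% to 83.7% for mt-Nd3 and 27.3% to 55.7% for mt-Nd4l. In contrast, mt-Co1 and mt-Nd4, which the chromosome 1 copy covers over 31.3% and 63.6% of the gene, held 97.7% to 99.6% and 98.6% to 99.6%. The counts of mt-Co2, mt-Atp6, mt-Co3, mt-Nd3 and mt-Nd4l are therefore uncertain by a factor that varied from library to library, and those of mt-Atp6 and mt-Nd4l are also given below with the copy's counts added. Copies of 95% identity or more elsewhere, over a large part of an mRNA gene, took few counts. Gm13340 on chromosome 2, a full-length copy of mt-Co1 (97.61% identity), had 108 to 480 counts in a library, and Gm13341 on chromosome 2, a copy of mt-Co2 (95.91%), had 75 to 324. Gm13339 on chromosome 2, a copy of 49.1% of mt-Nd2 (96.67%), had 2 to 3911, and Gm4076 on chromosome 13, a copy of 52.3% of mt-Nd5 (95.18%), had 0 to 10. Of the counts on each of these pairs, the mitochondrial gene held 98.5% or more in every library. Together the 7 chromosome 1 copies took 1.78% ± 0.388 of the library in Control, 1.01% ± 0.267 in DSS and 1.01% ± 0.274 in Indirubin (SD, n = 3), with DSS and Indirubin both below Control without overlap.

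**Figure D3:**
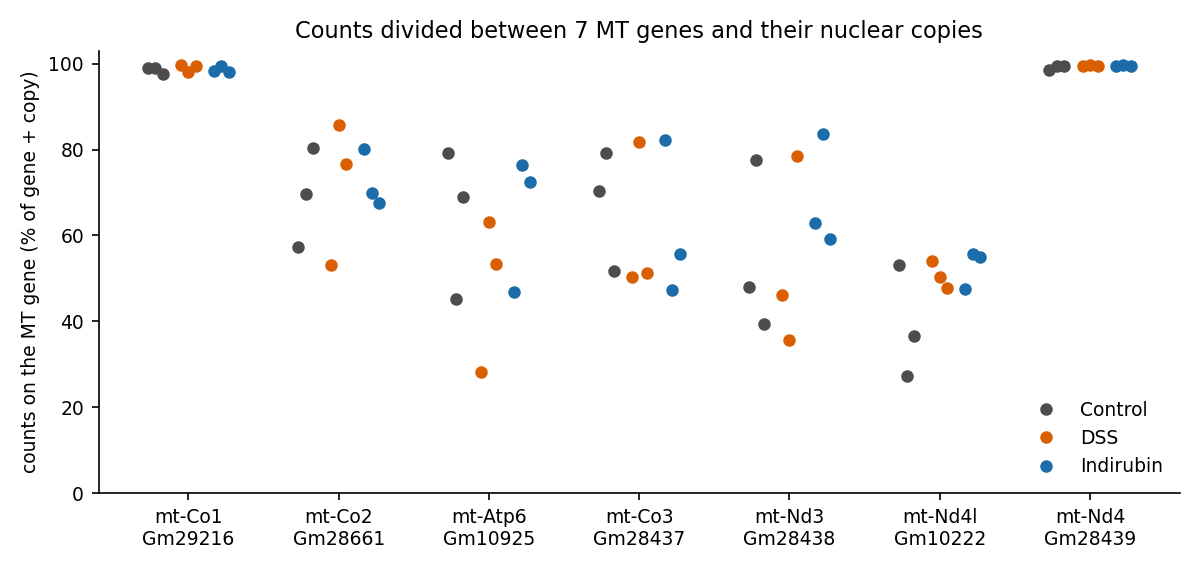
Points give, for each library, the percentage of counts on the mitochondrial gene out of those on the gene and its chromosome 1 copy together, for 7 pairs, coloured by group. mt-Co1 and mt-Nd4 lie between 97.7% and 99.6% in all 9 libraries, while the other 5 genes spread between 27.3% and 85.8% with overlapping groups.

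When the respiratory chain subunits were summed by complex, the makeup of the mitochondrial total differed between groups. Complex I genes held 45.2% ± 0.474 of it in Control, 46.6% ± 1.09 in DSS and 41.4% ± 1.18 in Indirubin (SD, n = 3), and Indirubin lay below both other groups without overlap. Complex IV genes held 32.9% ± 0.759, 31.9% ± 1.26 and 36.3% ± 2.11 in the same order, with Indirubin above both without overlap. Of these, mt-Co1 alone held 31.2%, 30.7% and 35.4%, while the means of mt-Co2 (0.834%, 0.598% and 0.430%) and mt-Co3 (0.921%, 0.533% and 0.457%) were lowest in Indirubin, with all groups overlapping. The complex III gene mt-Cytb held 17.3% ± 0.846, 17.1% ± 0.180 and 18.7% ± 0.638, and Indirubin overlapped Control but not DSS. The complex V genes mt-Atp6 and mt-Atp8 held 0.907% ± 0.177 in Control, 0.275% ± 0.0664 in DSS and 0.489% ± 0.245 in Indirubin, with DSS below Control without overlap and Indirubin overlapping both. With the counts of Gm10925 added, mt-Atp6 came to 1.49% ± 0.541, 0.609% ± 0.191 and 0.726% ± 0.232 of the mitochondrial total, and both DSS and Indirubin lay below Control without overlap. These sums are descriptions, and shares of a fixed total must fall where others rise.

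Among the complex I genes, mt-Nd2 and mt-Nd5 of the Indirubin group lay on opposite sides of the other groups. mt-Nd2 held 14.7%, 14.7% and 15.8% of the mitochondrial total in Control, 16.1%, 18.2% and 14.7% in DSS and 13.5%, 10.1% and 9.40% in Indirubin, so that Indirubin lay below both. mt-Nd5 (ENSMUSG00000064367, MT, 11742 to 13565), another complex I subunit gene, held 6.07% ± 0.657 in Control, 5.04% ± 0.502 in DSS and 8.08% ± 1.41 in Indirubin (SD, n = 3), with Indirubin above both without overlap and 9.68% in its highest library. The ratio of the counts of mt-Nd5 to those of mt-Nd1 (MT, 2751 to 3707) was 0.600 ± 0.113 in Control, 0.400 ± 0.0365 in DSS and 0.891 ± 0.244 in Indirubin (SD, n = 3), without overlap between any 2 groups. Likewise, mt-Nd1 and mt-Nd2 together held 25.3% ± 0.801, 28.9% ± 1.24 and 20.2% ± 2.73 of the mitochondrial total without overlap, whereas the ratio of mt-Rnr2 to mt-Rnr1 counts (0.909, 0.926 and 1.14) overlapped between all groups.

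The tRNA genes gave few counts, and most of these were on 1 gene. mt-Tp (ENSMUSG00000064372, MT, 15356 to 15422, minus strand) held 62.79% of all tRNA counts, with 13331, 14258 and 11466 counts in Control, 12971, 11287 and 14566 in DSS and 7523, 8429 and 5455 in Indirubin. Indirubin thus lay below both other groups in raw counts. Next came mt-Tc (ENSMUSG00000064349, MT, 5192 to 5257, minus strand) with 12.64%, at 1332, 2552 and 2416 counts in Control, 1409, 4533 and 3412 in DSS and 1433, 1763 and 1134 in Indirubin, where the groups overlapped. mt-Te (ENSMUSG00000064369, MT, 14071 to 14139, minus strand) held 6.32%, at 1298, 1240 and 2394 counts in Control, 962, 257 and 571 in DSS and 1037, 824 and 1407 in Indirubin, with DSS below Control.

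At the other end, mt-Tf had no count in any library, mt-Td had 3 counts in 1 library, mt-Tk (lysine) had 7 counts and mt-Tv (valine) 42 over all 9 libraries. A count of 0 allows up to 3 counts, or at most 0.0000623% of the mitochondrial total of a library. These 4 genes are 65 to 70 bases long, against 59 to 75 over all 22, and their G and C content was 30.9% in mt-Tf, 17.1% in mt-Td, 33.8% in mt-Tk and 39.1% in mt-Tv. It was 44.8% in mt-Tp and 31.0% in mt-Tl2. The part of length and base content in the counts was not tested. In all, 12 tRNA genes reached 10 counts in every library, and the other 10 had 0 to 765 counts in total.

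Further genes of the 12 gave the following counts. mt-Tn, the asparagine tRNA gene (ENSMUSG00000064348, MT, 5089 to 5159, minus strand), had 419, 925 and 717 counts in Control, 691, 859 and 1388 in DSS and 539, 624 and 365 in Indirubin, so that Indirubin lay below DSS and the other pairs of groups overlapped. mt-Ta, the alanine tRNA gene next to it (ENSMUSG00000064347, MT, 5018 to 5086, minus strand), had 19, 48 and 26 counts in Control, 110, 13 and 53 in DSS and 62, 35 and 13 in Indirubin, also with overlap. mt-Th, the histidine tRNA gene (ENSMUSG00000064364, MT, 11546 to 11612, plus strand), had 517, 652 and 533 counts in Control, 392, 61 and 181 in DSS and 404, 441 and 252 in Indirubin, so that both other groups lay below Control. mt-Tl1, a leucine tRNA gene (ENSMUSG00000064340, MT, 2676 to 2750, plus strand), had 105, 160 and 241 counts in Control, 140, 28 and 105 in DSS and 147, 199 and 312 in Indirubin, with DSS below Indirubin.

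The tRNA genes of the minus strand (8 genes, mt-Tp among them) and those of the plus strand (14 genes) are given apart here, without a test of strand. Strand means that of the annotated gene throughout. The strand setting of the counting is not given, so the counted reads may come from RNA of either strand. Plus-strand tRNA genes had 1995, 3003 and 3511 counts in Control, 1866, 358 and 1156 in DSS and 2117, 3295 and 2255 in Indirubin, with every DSS library below every Control and Indirubin library. Minus-strand tRNA genes made up 86.4% ± 2.98 of tRNA counts in Control, 94.1% ± 4.12 in DSS and 80.4% ± 2.84 in Indirubin (SD, n = 3), so that DSS lay above both without overlap. Minus-strand tRNA genes had 2794 ± 165, 3019 ± 572 and 1902 ± 509 counts per 1000000 mitochondrial counts, with Indirubin below both, and plus-strand ones 446 ± 139, 184 ± 112 and 472 ± 185, with DSS below both. The minus-strand sum is mostly mt-Tp and mt-Tc, and the counts of all other tRNA genes of both strands together were 5620 ± 1598 in Control, 2938 ± 1190 in DSS and 4397 ± 487 in Indirubin (SD, n = 3), with DSS below both without overlap. DSS replicate 2, which had the fewest nuclear genes detected (8271), was also the library with the fewest plus-strand tRNA counts.

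**Figure D4:**
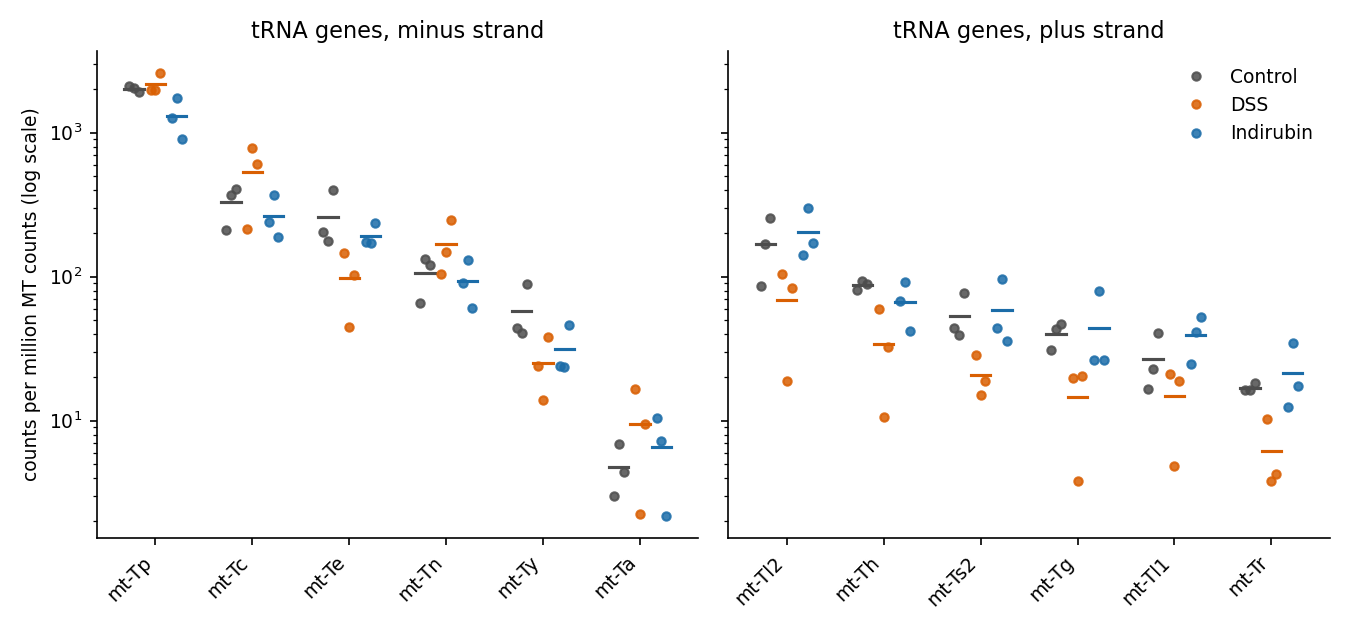
Points give counts per 1000000 mitochondrial counts (log scale) in each library for the 12 tRNA genes with at least 10 counts everywhere, on the minus strand (left) and plus strand (right), with bars at the means of 3 libraries. mt-Tp is highest throughout, with the lowest mean in Indirubin, and on the plus strand the DSS mean is the lowest of the 3 for each of the 6 genes.

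DSS was compared with Control over 7482 genes with edgeR's quasi-likelihood test on counts scaled by TMM, a method that sets the typical gene to no change. Of 33 mitochondrial genes tested (mt-Tf, mt-Tv, mt-Td and mt-Tk were too low), 6 fell at an adjusted p under 0.05 and none rose, where 0.495% of all genes tested fell. They were the ATP synthase genes mt-Atp6 and mt-Atp8 and the tRNA genes mt-Tg, mt-Ty, mt-Ts2 and mt-Te. Across the 33 genes the median log2 fold change was -1.18, against 0.01 over all genes, and the 18 tRNA genes tested had a lower median (-2.16) than the 13 mRNA genes (-1.01) and the 2 rRNA genes (-0.49). By strand, the 10 plus-strand tRNA genes had a median of -2.18, with a range from -2.59 to -1.18, and the 8 minus-strand ones -0.63, with a range from -2.78 to 0.19.

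mt-Atp6 (ENSMUSG00000064357, MT, 7927 to 8607), which encodes a membrane subunit of ATP synthase, had 67380, 65628 and 42436 counts in Control and 15322, 20186 and 13459 in DSS. It fell by 2.34 on the log2 scale (SE 0.47, adjusted p = 0.0403 from edgeR, by Benjamini-Hochberg over all genes tested), and with the counts of Gm10925 added the log2 fold change was -1.92 with an adjusted p of 0.107. mt-Atp8 (ENSMUSG00000064356, MT, 7766 to 7969) had 65, 94 and 71 counts in Control and 34, 15 and 23 in DSS, and fell by 2.35 (SE 0.48, adjusted p = 0.0403 from edgeR). The 2 genes lie on 1 bicistronic stretch with 43 shared bases, so they are not independent readings.

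Among the tRNA genes, mt-Tg (ENSMUSG00000064359, MT, 9391 to 9458), with 196, 300 and 278 counts in Control and 131, 22 and 114 in DSS, fell by 2.37 on the log2 scale (SE 0.46, adjusted p = 0.0329 from edgeR). mt-Ty (ENSMUSG00000064350, MT, 5260 to 5326), with 281, 285 and 532 counts in Control and 159, 80 and 213 in DSS, fell by 2.14 (SE 0.41, adjusted p = 0.0321 from edgeR). In both, the highest DSS count stayed under the lowest Control count. mt-Ts2 (ENSMUSG00000064365, MT, 11613 to 11671) had 280, 275 and 456 counts in Control and 189, 87 and 105 in DSS and fell by 2.14 (SE 0.44, adjusted p = 0.0422 from edgeR), and mt-Te fell by 2.29 (SE 0.47, adjusted p = 0.0443 from edgeR). mt-Tp and mt-Tc, which hold most tRNA counts, had log2 fold changes of -0.65 (SE 0.34, adjusted p = 0.745 from edgeR) and 0.03 (SE 0.50, adjusted p = 0.99983 from edgeR).

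At an unadjusted p under 0.05, 16 of the 33 genes were lower in DSS and none was higher, where 4.05% of all genes tested were lower. DSS lay below Control without overlap in 20 of the 33 (7 mRNA and 13 tRNA genes), where 8.21% of all genes did so. The mRNA genes of this kind were mt-Co1, mt-Cytb, mt-Nd4, mt-Nd5, mt-Nd4l, mt-Atp6 and mt-Atp8, of which mt-Nd4l had a log2 fold change of -1.47 (adjusted p = 0.119 from edgeR), or -1.95 with the counts of Gm10222 added (adjusted p = 0.0291 from edgeR), and mt-Co1 one of -0.75 (SE 0.61, adjusted p = 0.949 from edgeR). Of the 13 tRNA genes, mt-Tm and mt-Tq had a lowest DSS count of 0 and mt-Ti one of 5, under the filter's minimum count. In Control, mt-Tm had 45 to 84 counts, mt-Tq 36 to 55 and mt-Ti 119 to 180. They met the filter through Control, which favoured a lower value in DSS. They are also among the 16 genes above, and the same genes were tested on the scales below.

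These calls rested on the scaling, on the libraries fitted together and on single libraries. With all 9 libraries in one fit none of them was called by edgeR, with a smallest mitochondrial adjusted p of 0.0717, and 16 genes had an unadjusted p under 0.05, where 6.87% of all genes had one. With the library total as the scale no mitochondrial gene was called by edgeR (background 0.254%) and 9 were lower at an unadjusted p under 0.05 (background 0.962%), and 16 genes lay below Control without overlap, where 2.26% of all genes did. With the mitochondrial total as the scale none was called by edgeR (background 0.2%), 7 were lower at an unadjusted p under 0.05 (background 0.695%), 11 lay below without overlap (background 1.64%), and mt-Nd1 lay above (background 22%). mt-Atp6 had log2 fold changes of -1.83 (adjusted p = 0.105 from edgeR) and -1.72 (adjusted p = 0.126 from edgeR) on these scales, and its direction and that of the other 5 called genes did not turn. In all, 6 and 8 of the 33 genes changed sign, among them mt-Nd1, mt-Nd2 and both rRNA genes. These 2 scales moved the median of all genes tested to 0.69 and 0.85. Without Control replicate 1, 2 or 3 or without DSS replicate 3 no mitochondrial gene was called, without DSS replicate 2 mt-Atp6 alone was called (background 0.357%), and without DSS replicate 1 there were 10 calls (background 0.797%). At an unadjusted p under 0.05 there were 14 to 20 genes with each library left out, where 4.88% to 7.71% of all genes were.

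**Figure D5:**
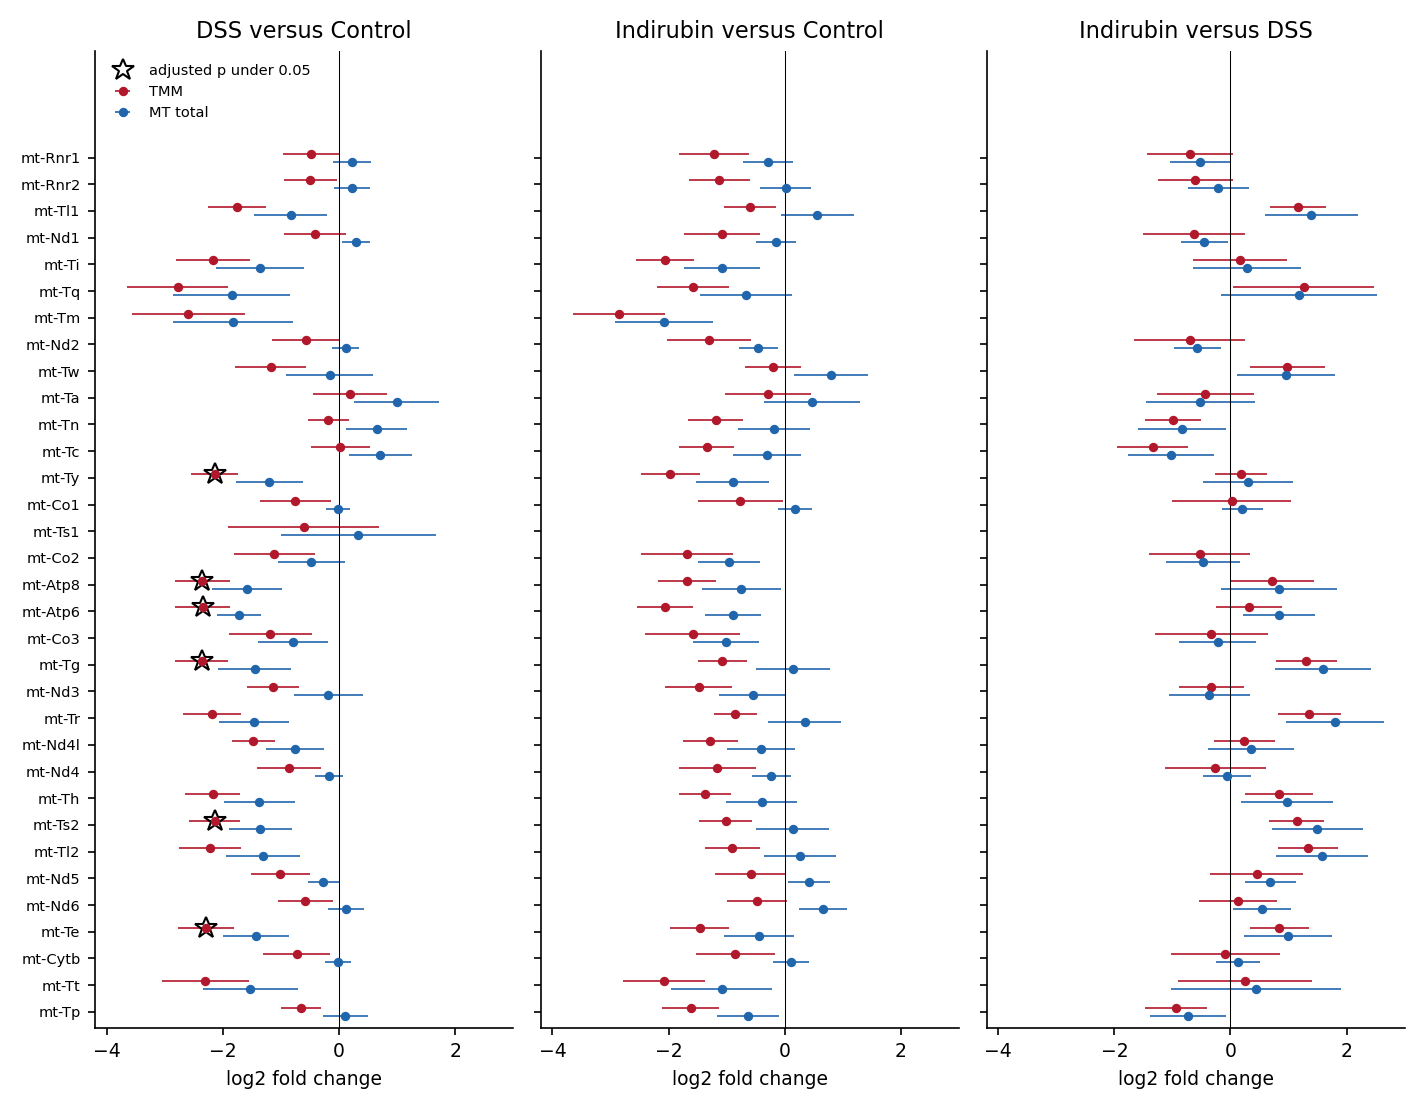
Points give the log2 fold change (horizontal axis, bars 1 SE) of each mitochondrial gene tested, in genome order from top to bottom, in 3 comparisons, with TMM scaling in red and the mitochondrial total as the scale in blue, and stars mark an adjusted p under 0.05. The 6 stars are all in DSS versus Control with TMM, between -2.37 and -2.14, and the blue points lie to the right of the red ones in the comparisons with Control.

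Indirubin was compared with Control over 8059 genes. The same Control libraries served in both comparisons, so the values of the 2 are set side by side and not related to each other. Of 32 mitochondrial genes tested, none was called by edgeR's quasi-likelihood test at an adjusted p under 0.05, where 0.236% of all genes were, and 17 were lower and none higher at an unadjusted p under 0.05 (background 6.38% lower). DESeq2 called 6 (mt-Rnr2, mt-Atp6, mt-Tp, mt-Ty, mt-Ti and mt-Tm), where it called 3.92% of all genes. The median log2 fold change was -1.25 over the 32 genes and 0.13 over all genes, and it was -1.28 for mRNA genes, -1.17 for rRNA genes and -1.34 for tRNA genes. By strand the tRNA genes had medians of -1.04 (plus) and -1.47 (minus).

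The smallest adjusted p was that of mt-Atp6, with 16812, 36542 and 25383 counts in Indirubin and a log2 fold change of -2.06 (SE 0.48, adjusted p = 0.0941 from edgeR). mt-Tp, the proline tRNA gene, had a log2 fold change of -1.62 (SE 0.49, adjusted p = 0.169 from edgeR) and mt-Ty one of -1.97 (SE 0.51, adjusted p = 0.120 from edgeR). Indirubin lay below Control without overlap in 20 genes (8 mRNA, 2 rRNA and 10 tRNA genes), where 9.07% of all genes did. With the mitochondrial total as the scale, mt-Nd2, mt-Nd4, mt-Atp8, mt-Tp, mt-Ti and mt-Tm lay below without overlap (background 1.66%) and mt-Co1, mt-Nd5 and mt-Tw above (background 31.3%). On that scale 1 gene, mt-Tm, was lower at an unadjusted p under 0.05 (background 0.955%). mt-Tm had fewer than 10 counts in an Indirubin library and met the filter through Control. This favoured a lower value in Indirubin, for its DESeq2 call as well. mt-Tr, which had a TMM log2 fold change of -0.85, stood at 0.12 with the library total and 0.34 with the mitochondrial total as the scale. In all, 8 and 12 of the 32 genes changed sign on these scales. Those scales moved the median of all genes to 1.09 and 1.30. Without Indirubin replicate 1, the library with the highest mitochondrial share of its group, 16 mitochondrial genes were called (background 4.78%) and 29 had an unadjusted p under 0.05 (background 17.5%). No other library left out gave a mitochondrial call. Without Control replicate 3, Indirubin replicate 2 or Indirubin replicate 3, 9, 11 and 9 genes had an unadjusted p under 0.05, where 9.58% to 17.5% of all genes had one over the fits with a library left out.

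Indirubin and DSS, the 2 groups with stated colitis, differ by the indirubin dosing and were compared over 9117 genes. edgeR's quasi-likelihood test called none of the 31 mitochondrial genes tested and none of all genes (background 0%), and DESeq2 called no mitochondrial gene either (background 0.877%). The median log2 fold change was 0.16, against 0.15 over all genes, and 6 genes had an unadjusted p under 0.05, where 7.68% of all genes did. The plus-strand tRNA genes mt-Tr (1.36), mt-Tl2 (1.34), mt-Tg (1.31), mt-Tl1 (1.17) and mt-Ts2 (1.14), for arginine, leucine, glycine, leucine and serine, were higher in log2 fold change in Indirubin, and mt-Tc was lower (-1.34), with adjusted p-values of 0.543 to 0.641 from edgeR. Without DSS replicate 2 or 3 none of them had an unadjusted p under 0.05, and without Indirubin replicate 2 there were 2. Over the fits with a library left out, 4.89% to 10.5% of all genes had an unadjusted p under 0.05, and 5.28% without Indirubin replicate 2.

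mt-Tl2 (ENSMUSG00000064366, MT, 11671 to 11741) had 684, 109 and 466 counts in DSS and 843, 1434 and 1032 in Indirubin, and mt-Tr (ENSMUSG00000064361, MT, 9808 to 9875) 68, 22 and 24 and 74, 168 and 104. They were the 2 genes without overlap after TMM scaling, where 10.5% of all genes were higher without overlap. With the mitochondrial total as the scale, 10 genes lay above DSS without overlap (background 8.22%), namely mt-Co1, mt-Cytb, mt-Nd5 and 7 tRNA genes, and mt-Nd1, mt-Nd2, mt-Rnr1 and mt-Tp lay below (background 2.56%). On that scale mt-Nd5 had a log2 fold change of 0.68 (SE 0.44, adjusted p = 0.998 from edgeR), mt-Nd2 one of -0.57 (SE 0.40, adjusted p = 0.998 from edgeR) and mt-Nd1 one of -0.45 (SE 0.41, adjusted p = 0.998 from edgeR). With 1 SE as large as these, differences of this size were not detectable with 3 libraries a group.

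In a single test of any difference among the 3 groups, over 9713 genes, mt-Atp6 (adjusted p = 0.0427 from edgeR) and mt-Ty (adjusted p = 0.0279 from edgeR) were called of 33 mitochondrial genes, where 0.659% of all genes were, and 19 had an unadjusted p under 0.05 (background 10.3%). The call of mt-Atp6 was lost when the counts of Gm10925 were added (adjusted p = 0.113 from edgeR). Of the nuclear copies, Gm10222, the copy of mt-Nd4l, had an adjusted p of 0.0460 from edgeR in this test and fell by 2.33 in DSS versus Control (adjusted p = 0.0164 from edgeR). The number of mitochondrial calls was 0 without Control replicate 3 (background 0.573%) or DSS replicate 3 (background 0.625%). It was 7 without DSS replicate 1 (background 0.944%), 16 without Indirubin replicate 1 (background 3.35%) and 2 without Indirubin replicate 3 (background 0.414%). A single gene was called without Control replicate 1 (background 0.505%), Control replicate 2 (background 0.414%), DSS replicate 2 (background 0.709%) or Indirubin replicate 2 (background 0.446%).

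Nuclear genes that act on the mitochondrial genome or encode subunits of the respiratory chain complexes, complex II among them, and of ATP synthase were read beside these values. Of 48 genes for transcription, processing, stability and replication of mitochondrial nucleic acids, 19, 23 and 31 were tested in DSS versus Control, Indirubin versus Control and Indirubin versus DSS, and none was called by edgeR's quasi-likelihood test, where 0.708%, 0.236% and 0% of all genes tested were. At an unadjusted p under 0.05 there were 1, 1 and 0, where 7.52%, 13.8% and 7.68% of all genes were. Their medians were -0.33, -0.03 and 0.13 on the log2 scale, against 0.01, 0.13 and 0.15 over all genes. Those with the smallest p-values were Grsf1, an RNA-binding protein of mitochondrial RNA granules, at -1.25 in DSS versus Control (adjusted p = 0.647 from edgeR), and Tfb2m, a transcription factor for the mitochondrial promoters, at 3.39 in Indirubin versus Control (adjusted p = 0.230 from edgeR).

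Of 87 nuclear subunit genes of the respiratory chain complexes and ATP synthase, 77 were tested and none was called in any comparison, with medians of 0.17, -0.25 and -0.51 in the same order. At an unadjusted p under 0.05, 5 were higher and 3 lower in DSS versus Control (background 3.48% and 4.05%), 1 higher and 11 lower in Indirubin versus Control (background 7.45% and 6.38%), and 0 higher and 12 lower in Indirubin versus DSS (background 4.45% and 3.22%). Their summed level per 1000000 nuclear counts was 9623 ± 176 in Control, 10179 ± 938 in DSS and 8270 ± 821 in Indirubin (SD, n = 3), with Indirubin below both without overlap. The 78 genes of the mitochondrial ribosome had no call, 2 genes at an unadjusted p under 0.05 of the 70, 69 and 76 tested (a smaller share than the background above), and medians of 0.15, 0.13 and -0.09. Their summed level overlapped between all groups. Of the list of other RNAs without a poly(A) tail, such as Rn7sk and Rmrp, no gene passed the filter, at 0 to 23 counts per library in sum, and 2 of 63 histone genes were tested, with no call.

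Markers of other cell types and Rn18s-rs5, an 18S rRNA-related sequence, varied between the libraries as well. Summed per 1000000 nuclear counts, the 9 pancreatic acinar markers ranged from 48.5 to 128 in Control, from 0 to 23.9 in DSS and from 74.1 to 5524 in Indirubin, with none of the 9 counted in every library and 7 of them at 0 throughout DSS. The 6 neutrophil markers ranged from 7.75 to 22.8, from 65.7 to 135 and from 190 to 1516, with 2 of the 6 counted in every library and 4 at 0 throughout Control. The 5 erythroid markers, all counted in every library, ranged from 733 to 1534, from 1140 to 1791 and from 1300 to 4260. The 6 heart and muscle markers, from tissue rich in mitochondria, ranged from 0 to 28.1 in Control, from 0 to 9.18 in DSS and from 20.9 to 889 in Indirubin, with none of the 6 counted in every library and 3 at 0 throughout Control and 3 throughout DSS. The 7 markers of Kupffer cells and macrophages, all counted in every library, ranged from 482 to 793, from 685 to 935 and from 980.3 to 1094. Of these 7, 3 were lower in log2 fold change in Indirubin versus Control (median 0.32) and 4 in Indirubin versus DSS (median -0.10), so the sums do not stand for every marker. The 5 stellate cell markers ranged from 610 to 1058, from 282 to 683 and from 633 to 956. Their median log2 fold changes were -1.23 in DSS versus Control, -0.87 in Indirubin versus Control (3 of 5 lower) and 0.78 in Indirubin versus DSS. The 5 cholangiocyte markers, of which 1 was counted in every library, ranged from 21.2 to 40.4 in Control and from 44.1 to 92.9 in DSS without overlap. In Indirubin they ranged from 37.0 to 52.9. The 5 markers of sinusoidal endothelium ranged from 169 to 271, from 146 to 223 and from 230.4 to 335. The 10 hepatocyte markers ranged from 106602 to 138831, from 107920 to 154254 and from 101298 to 126258. Their median log2 fold changes were -0.12 in DSS versus Control, -0.55 in Indirubin versus Control and -0.59 in Indirubin versus DSS. Rn18s-rs5 took 0.269% to 4.31% of a library, with the highest share in Indirubin replicate 2. Without it the mitochondrial share was 89.6% ± 1.81, 82.9% ± 7.93 and 80.8% ± 8.09 (SD, n = 3). The part of other cells and of rRNA in the mitochondrial values was not tested. The markers of brown fat (Ucp1 and Cidea) and of kidney tubule (Kap, Umod and Slc34a1), both rich in mitochondria, were at 0 in all 9 libraries.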

How the data were processed

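Liver RNA was extracted by the authors with the RNeasy Plus Micro Kit, and libraries made from it were sequenced on a DNBSEQ instrument. The deposited table holds whole-number read counts per gene without normalization, on build GRCm39 per the submitters' processing notes. The aligner, counting program, strand setting and RNA selection are not given in the sources used here. The FPKM, fold change and p-value columns and the gene lists deposited by the authors hold their own normalization and comparisons and were not used. Samples were grouped by their labels. Counts were tested in R 4.3.3 with edgeR 4.0.16 (filterByExpr with a minimum count of 10 and total of 15, TMM, glmQLFit, glmQLFTest, Benjamini-Hochberg adjustment over all genes tested) on the 6 libraries of each comparison, or all 9 for the 3 groups together. The SE of a log2 fold change is its size over the square root of F. Levels were also expressed against the library total and the mitochondrial total. Tests were checked on counts simulated for Indirubin versus DSS, with changes planted in genes drawn at random from all genes tested. Of 158 planted log2 changes of 2 that passed the filter, 1.9% were called (7972 genes tested). Of 140 changes of 4, 80% were called (7630 genes tested). These rates need not hold for the most counted mitochondrial genes. Library totals were 6514863 to 7944684 counts.

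All protein-coding and rRNA genes of chromosome MT were named, tRNA genes with at least 10 counts in each library were named, and up to 3 nuclear upkeep genes each way could be named. Further tRNA genes were named after their values were seen. The members and lists were chosen with earlier results of these data known. Alternatives were DESeq2's size factors and its test (1.42.0), the library total, the mitochondrial total, factors from nuclear genes, no filter, 10 counts in every library, all 9 libraries, the replicate block and each library left out. Summing genes with their copies, a share without Rn18s-rs5, and the chromosome 1 window were added after seeing the data, since the planned window held no row. Copies were matched with blastn 2.17.0 among GENCODE GRCm38 transcripts. Replicate numbers were not used to pair the samples in the main tests.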

Additional observations from a re-analysis of the deposited data

How the results depend on the processing

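The number of mitochondrial genes called at an adjusted p under 0.05 by edgeR's quasi-likelihood test moved with the processing, and the cause was not tested. Shares in parentheses are those of all genes tested. In DSS versus Control the 6 calls (0.708%) became 0 with the library total (0.254%), the mitochondrial total (0.2%) or all 9 libraries in one fit (0.113%), 14 without a filter (0.676%), 11 when each library had to hold at least 10 counts (2.52%), 10 with DESeq2 (1.75%), and lay between 0 and 10 with each library left out (0.14% to 0.797%). Genes at an unadjusted p under 0.05 went from 16 (7.52%) to 9 with the library total (12.2%) and 7 with the mitochondrial total (13%). In Indirubin versus Control the count of 0 (0.236%) became 4 without a filter (1.66%), 1 with at least 10 counts (2%) and 6 with DESeq2 (3.92%), and lay between 0 and 16 with each library left out (0.01% to 4.78%). The 17 at an unadjusted p under 0.05 (13.8%) became 3 with the library total (27.2%) and 1 with the mitochondrial total (31.2%), below the share of all genes, and lay between 9 and 29 with each library left out (9.58% to 17.5%). In Indirubin versus DSS no alternative gave a call, and the 6 at an unadjusted p (7.68%) became 1 with the mitochondrial total (5%) and lay between 0 and 9 with each library left out (4.89% to 10.5%). For the 3 groups together the 2 calls (0.659%) became 0 with the library total (0.875%) or the mitochondrial total (0.968%), 14 without a filter (1.34%), 7 with at least 10 counts (2.67%), 10 with DESeq2 (2.46%) and 1 with copies summed (0.618%), and lay between 0 and 16 with each library left out (0.414% to 3.35%). The 19 at an unadjusted p (10.3%) became 7 with the library total (15.3%) and 2 with the mitochondrial total (16.1%), the last below the share of all genes.

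Deviations from the group mean had correlations of -0.0256 to 0.0309 between same-numbered samples, so the replicate numbers were not used as pairs. This does not exclude a shared batch. Pairing by library name, whose numbers differ from the replicate numbers in Indirubin, was not examined. With the replicate block there were 2 calls in DSS versus Control (mt-Th and mt-Tg, 0.401% of all genes called), 0 in Indirubin versus Control (0.608%) and Indirubin versus DSS (0.0329%) and 6 for the 3 groups together (0.916%).

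Over all mitochondrial genes tested, the sign turned in 6 of 33 in DSS versus Control with the library total and in 8 with the mitochondrial total, in 8 and 12 of 32 in Indirubin versus Control, and in 1 and 1 of 31 in Indirubin versus DSS, where leaving out a library turned 2 to 7. Among the 39 pairs of a gene and a comparison with an unadjusted p under 0.05, 4 of 619 values turned, all in Indirubin versus Control: with the mitochondrial total mt-Ts2 and mt-Tg stood at 0.14 each and mt-Tr at 0.34, and with the library total mt-Tr stood at 0.12. The mitochondrial share of DSS minus Control lay between -10.2 and -2.57 points with each library left out, and that of Indirubin minus Control between -14.9 and -5.98. With 3 libraries a group and 569044 to 2132208 nuclear counts, changes as large as a log2 of 2 may have gone uncalled, and genes sharing sequence with the chromosome 1 copy are limited by how reads were assigned. The simulation was not run on the mitochondrial genes alone.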
